A study of Mus musculus with 12 samples.

Results

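The genes described here are the nuclear genes for subunits of the mitochondrial respiratory chain and ATP synthase, in RNA from mouse lens capsules with their attached lens epithelial cells. They were chosen by symbol: every gene of the deposited count files whose name starts with Ndufa, Ndufb, Ndufc, Ndufs, Ndufv, Uqcr, Cox4 to Cox8 or Atp5, together with Sdha, Sdhb, Sdhc, Sdhd and Cyc1, without the Ndufaf assembly factors and without pseudogenes. This gave 86 of 24147 genes, of which 36 belong to complex I, 4 to complex II, 9 to complex III, 20 to complex IV and 15 to complex V (ATP synthase). The other 2, Atp5s and Atp5sl, carry the Atp5 symbol but are not subunits of the enzyme, and Ndufa4 and Ndufa4l2 were counted with complex IV, where the NDUFA4 protein resides.

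The mice were 2 months old, and the fiber cell mass of the lens was taken out in vivo, as in cataract surgery, so that the capsule and the epithelial cells on it stayed behind. FNcKO mice carry a conditional knockout of fibronectin, their strain is a mix of 3 (C57BL/6, 129 and FVB/N), and their capsules were collected 48 h after the operation or at 0 h. Wild type (WT) mice were C57BL/6 and were collected at the same times. Each of the 4 groups holds 3 libraries, described by the submitters as biological triplicates, and all 12 libraries come from operated lenses. Genotype and strain coincide, so their effects cannot be told apart. The sources used here name neither the Cre driver nor how many animals went into a library, and the p-values below measure the spread between these libraries.

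Complexes I to IV pass electrons from NADH and succinate to oxygen. Complexes I, III and IV pump protons across the inner mitochondrial membrane, and complex V uses the returning protons to make ATP. Complex I takes electrons from NADH and complex II from succinate, both hand them to coenzyme Q, complex III moves them to cytochrome c, and complex IV reduces oxygen. A few subunits are encoded by mitochondrial DNA, and those genes were not analysed here. Lens epithelial cells keep mitochondria, whereas mature lens fiber cells lose them along with their other organelles.

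Libraries held between 8368160 and 10862573 counts, and the 86 genes took 0.492%, 0.477% and 0.567% of the counts in the FNcKO 48 h libraries (replicates 1, 2 and 3) and 0.407%, 0.403% and 0.512% in the FNcKO 0 h libraries. In WT they took 0.637%, 0.579% and 0.517% at 48 h and 0.439%, 0.395% and 0.369% at 0 h. Crystallin genes took between 1.48% and 24.7% of a library. Fn1, the targeted gene, had 146, 297 and 687 CPM (counts per 1000000, after TMM scaling) in FNcKO 48 h libraries and 1513, 527 and 978 CPM in WT 48 h libraries. At 0 h it had 16.8, 9.8 and 8.31 CPM in FNcKO and 18.9, 23 and 15.5 CPM in WT. FNcKO was below WT on average at both times with some overlap, neither difference passed the test (edgeR quasi-likelihood test, Benjamini-Hochberg-adjusted p = 0.713 at 48 h and 0.609 at 0 h), and a count over the whole gene does not show whether an exon was deleted. Sums of 10 lens fiber markers ran from 10900 to 96300 CPM in FNcKO 48 h libraries and from 122000 to 265000 CPM in FNcKO 0 h libraries, against 12800 to 56200 CPM in WT at 48 h and 103000 to 178000 CPM in WT at 0 h. Summed markers of macrophages and neutrophils moved the other way. The 8 macrophage and monocyte markers summed to 144 to 302 CPM in FNcKO at 48 h and 43.2 to 79.7 CPM in FNcKO at 0 h. In WT they summed to 197 to 491 CPM at 48 h and 50.1 to 105 CPM at 0 h. The 6 neutrophil markers in the files summed to 45.3 to 120 CPM in FNcKO at 48 h and 3.8 to 4.73 CPM in FNcKO at 0 h, and to 61.9 to 351 CPM in WT at 48 h and 4.82 to 10.1 CPM in WT at 0 h. Single markers were less uniform than the sums. By edgeR, 3 of 10 fiber markers were called lower at 48 h in each genotype. Of the 8 macrophage markers, 4 were called higher in WT and 5 in FNcKO, and of the 6 neutrophil markers, 6 and 5. The macrophage marker C1qb averaged 6.52 CPM at 48 h and 9.41 CPM at 0 h in FNcKO. The part of these cell types in the results below was not tested, and in such bulk samples fewer cells of a type and less RNA per cell cannot be told apart. Lens epithelium was present, since all 6 markers listed for it were detected, among them Pax6 with 294 to 403 CPM in FNcKO at 48 h, 507 to 521 in FNcKO at 0 h, 353 to 393 in WT at 48 h and 416 to 510 in WT at 0 h. The epithelial sum is mostly Cryab, which fiber cells also express, and 4 of the 6 were called lower at 48 h in each genotype. Sums of 4 proliferation markers were 473 to 983 CPM in FNcKO at 48 h and 55.8 to 94.7 in FNcKO at 0 h, and 184 to 763 CPM in WT at 48 h and 20.4 to 66.4 in WT at 0 h. Of the other lists, the 6 photoreceptor markers summed to 248 to 5860 CPM over all libraries, the 5 of vessels and pericytes to 85.7 to 160 CPM and the 4 of cardiac and slow muscle to 1.2 to 12.9 CPM.

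One library stood apart for these genes. In FNcKO 0 h replicate 3, 77 of the 81 genes that could be tested were above both other libraries of the group, with a median difference of 0.74 on the log2 scale from the mean of the other 2, whereas the median over all 14560 tested genes was 0.04. The difference followed gene length: all tested genes under 1 kb were higher by a median of 0.72, those from 1 kb to under 2 kb by 0.43 and those from 2 kb to under 4 kb by 0.09, while longer genes were at -0.34. Respiratory chain genes are short, with a median deposited length of 727 bp against 2981.5 bp over all tested genes, and 65.4% of them, against 6.2% of all tested genes, are under 1 kb. WT 0 h replicate 1 showed a smaller difference of the same kind, with a median of 0.34 for the respiratory chain genes and 67 of 81 above both other libraries. FNcKO 0 h replicate 3 also had the most crystallin (24.7% of counts) and the highest sum of fiber markers. Counts and calls in FNcKO over time, and the differences that use the FNcKO 0 h group, are given below with and without it.

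**Figure D1:**
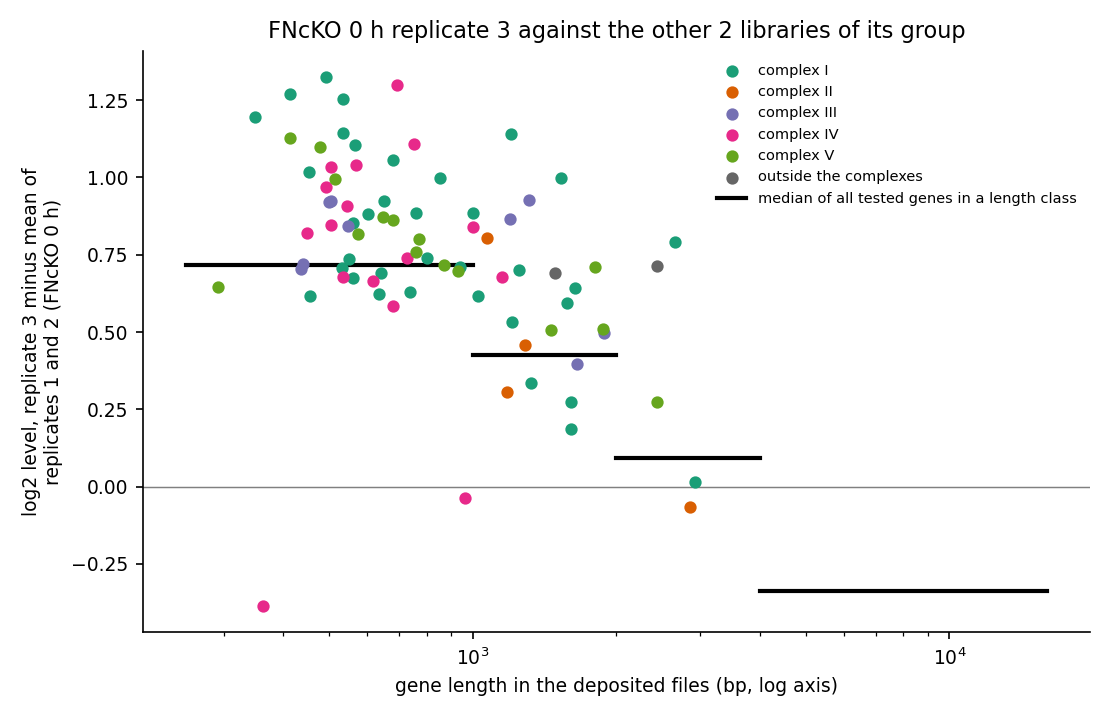
Each point is 1 of the 81 tested respiratory chain genes, placed by its gene length in bp (horizontal, log axis) and by its log2 level in FNcKO 0 h replicate 3 minus the mean of the other 2 libraries of that group (vertical). Black bars give the medians of all tested genes in 4 length classes, from 0.72 under 1 kb to -0.34 at 4 kb and over, and most points lie above 0.

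The promoters of these genes are shown because promoter sequence is one property that the choice by symbol did not use. RefSeq promoter sequence (GRCm38.p6) was matched for 70 of the 86 genes, and the 250 bases before the transcription start were searched on both strands. NRF1, a transcription factor known for driving respiratory chain genes, binds the string GCGCA, any base, then GCGC, and this was found before 12 of the 70 genes (17.1%) and in 3.86% of all 27025 promoters. The string CCGGAAG, bound by GABP and other ETS factors, was found before 11 of the 70 (15.7%) and in 7.05% of all promoters. CCAAT, the box bound by NFY, was in 31 of 70 (44.3%) against 34.5% of all, and AAGATGGC, bound by YY1, was in 0 of 70 against 1.59% of all. Bases after the transcription start were not searched, so the 0 does not show that these genes lack the YY1 string. Matches can overlap, and a match is a string in the window, not a shown binding site. The comparison with all promoters was not matched for base composition. Sequences are given for 5 genes that the results turn on, 5′ to 3′ along the gene's own strand, with the NRF1 and CCGGAAG strings (or their reverse complements) in capitals.
Sdhd, chr9:50603850-50604099, minus strand, both strings, a gene that rose in WT in every alternative analysis: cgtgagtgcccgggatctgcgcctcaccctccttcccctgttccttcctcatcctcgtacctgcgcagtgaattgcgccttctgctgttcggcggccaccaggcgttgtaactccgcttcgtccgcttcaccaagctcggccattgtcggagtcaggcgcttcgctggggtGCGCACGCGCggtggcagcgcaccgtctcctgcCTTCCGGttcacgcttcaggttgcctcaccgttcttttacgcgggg
Atp5g3, chr2:73911327-73911576, minus strand, neither string, the gene with the largest rise in WT: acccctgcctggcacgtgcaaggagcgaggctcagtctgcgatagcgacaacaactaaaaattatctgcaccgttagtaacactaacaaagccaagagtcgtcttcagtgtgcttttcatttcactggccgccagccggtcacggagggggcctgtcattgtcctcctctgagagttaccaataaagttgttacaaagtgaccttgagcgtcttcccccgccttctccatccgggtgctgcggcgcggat
Cox6b1, chr7:30626115-30626364, minus strand, the ETS string, a complex IV gene that rose in WT: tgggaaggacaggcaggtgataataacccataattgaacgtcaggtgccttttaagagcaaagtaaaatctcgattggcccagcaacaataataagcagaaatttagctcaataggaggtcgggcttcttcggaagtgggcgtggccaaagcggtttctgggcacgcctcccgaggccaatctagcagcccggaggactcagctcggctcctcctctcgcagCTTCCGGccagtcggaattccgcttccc
Sdha, chr13:74350241-74350490, minus strand, 3 copies of the NRF1 string, a complex II gene that passed no test: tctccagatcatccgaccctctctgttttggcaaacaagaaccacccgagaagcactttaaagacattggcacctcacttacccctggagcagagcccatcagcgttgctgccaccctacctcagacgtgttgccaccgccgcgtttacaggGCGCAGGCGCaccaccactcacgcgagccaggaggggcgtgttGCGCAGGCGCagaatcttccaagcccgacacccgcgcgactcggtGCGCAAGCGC
Ndufv3, chr17:31519865-31520114, plus strand, neither string, a complex I gene that fell in FNcKO: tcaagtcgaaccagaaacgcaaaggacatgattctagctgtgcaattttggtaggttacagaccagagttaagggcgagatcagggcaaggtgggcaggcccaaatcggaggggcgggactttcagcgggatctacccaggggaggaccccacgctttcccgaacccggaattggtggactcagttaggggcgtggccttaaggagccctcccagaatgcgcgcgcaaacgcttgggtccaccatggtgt
Of the 12 genes that rose in WT, 9 had a promoter in the table, and 1 of the 9 (11.1%) held the NRF1 string and 2 (22.2%) the ETS string; whether motifs and changes are related was not tested.

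The respiratory chain genes differed widely in level. Per kb of deposited gene length, and averaged over all 12 libraries, Atp5b, the catalytic beta subunit of ATP synthase, was highest with 374 CPM per kb. Atp5a1, the alpha subunit, followed with 208 CPM per kb, close to Cox4i1 with 203 CPM per kb and Cox8a with 177 CPM per kb, both of complex IV. The order of the 3 after Atp5b is not firm, since their group SDs, up to 93 CPM per kb for Cox8a in FNcKO at 0 h, exceed the gaps between them. In complex III, Uqcrb and Uqcrh led with 107 and 95.2 CPM per kb. Complex I was led by the accessory subunits Ndufa12 and Ndufa1 with 77.9 and 77.8 CPM per kb, and complex II by Sdha, its FAD-binding subunit, with 68.9 CPM per kb. Sdhd, Sdhc and Sdhb followed with 54.2, 52.6 and 46.8 CPM per kb, and their order differed between the groups: Sdhd was the highest of these 3 in WT at 48 h, Sdhc in FNcKO at 48 h, and Sdhb at 0 h in both genotypes. Reads of some members can be lost or shared: 40 of the 86 have no 50-base window in common with another annotated gene, and 16 share over 20%. Of the windows of Atp5l, Atp5h and Uqcrb, 84.8%, 47.9% and 43.4% occur elsewhere, so their levels are uncertain. For Atp5o the share was 50.3%, but the other entry with the largest part of these windows carries the same symbol.

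In 5 of 86 genes too few counts were present for a test. Cox8c and Cox7b2, isoforms known from testis, and Ndufs5, a complex I subunit, had 0 counts in every library, and a count of 0 leaves room for 3 counts, which is 0.286 CPM in the deepest library on this scale and 0.43 CPM in the shallowest. For Ndufs5, the span overlaps the entry BC002163 and 31.1% of its 50-base windows occur in that transcript, which itself had 12 to 44 counts per library over 2 entries. Reads over shared sequence can be lost, so the limit of 3 counts need not hold for Ndufs5, and such a loss was not tested. Cox6a2 and Cox7a1, the isoforms of heart and skeletal muscle, had 0 to 7 and 2 to 9 counts per library. The sums of 9 striated muscle markers were also low, with 1.27 to 8.03 CPM over all libraries.

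Where complex IV has alternative isoforms, the widely expressed form was the abundant one in every library. Cox4i1 had 196 ± 4.32 CPM per kb in FNcKO at 48 h, 251 ± 62 in FNcKO at 0 h, 192 ± 11.4 in WT at 48 h and 175 ± 43.5 in WT at 0 h (mean ± SD, n = 3). Its counterpart Cox4i2, known from lung, had 2.72 ± 1.74, 3.11 ± 1.1, 3.93 ± 1.83 and 4.29 ± 1.17 CPM per kb in the same groups. Cox6a1 averaged 140 CPM per kb over all libraries against 0.216 for Cox6a2, and Cox8a averaged 177 against 1.86 for Cox8b, which in rodents is the muscle form. Cox6b1 averaged 85.4 CPM per kb and Cox6b2, the form known from testis, 11.8 CPM per kb. Among the Cox7a genes, Cox7a2l, known as a factor of supercomplexes (joined complexes), averaged 63.5 CPM per kb, Cox7a2 35.9 and Cox7a1 1.51. The 3 genes of the ATP synthase c ring, which encode the same mature protein, were all expressed, with averages of 121 CPM per kb for Atp5g2, 112 for Atp5g3 and 57.7 for Atp5g1. Atp5j and Atp5j2, which encode different subunits despite their names, averaged 89.5 and 67.3 CPM per kb, and Cox7b 46.4. Ndufa4l2 was the isoform with the largest differences between groups: it stood at 2.75 ± 3.42 CPM per kb in FNcKO at 48 h, 10.7 ± 5.25 in FNcKO at 0 h, 1.86 ± 0.777 in WT at 48 h and 19.5 ± 9.42 in WT at 0 h, while Ndufa4 averaged 115 CPM per kb.

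**Figure D2:**
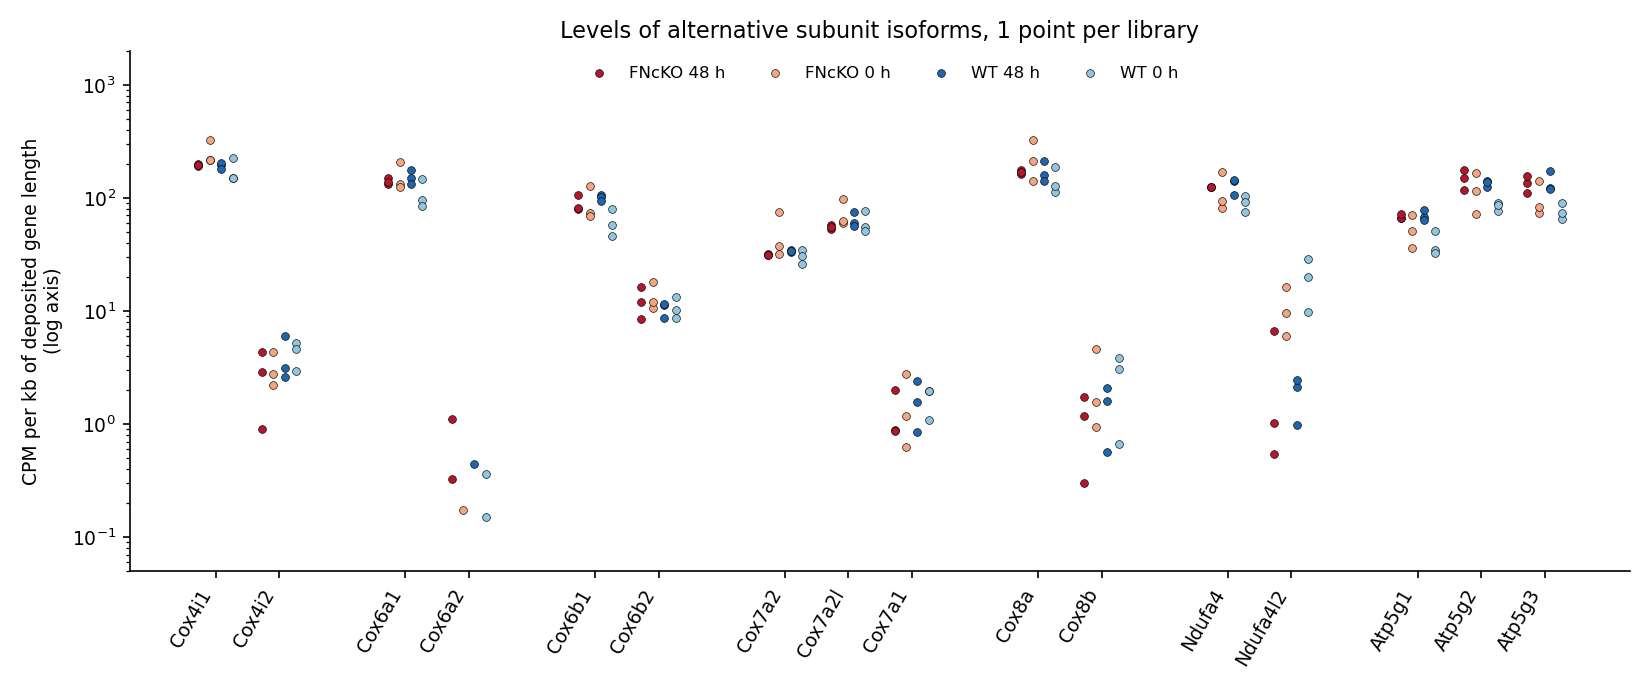
Points give the CPM per kb of deposited gene length (log axis) of alternative subunit isoforms in each library, with the 4 groups in colour and side by side for each gene. Libraries with 0 counts are not drawn; Cox4i1, Cox6a1, Cox6b1 and Cox8a lie above their partners in all 12 libraries, and Ndufa4l2 spans the widest range between groups.

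The first question was how these genes differed between 48 h and 0 h in WT capsules. Values above 0 were common but few passed: 67 of the 81 tested genes had a log2 change above 0, with a median of 0.26 against 0.02 over all tested genes, whereas with a trend with gene length removed 42 of 81 were above 0. At an adjusted p under 0.05 (edgeR, Benjamini-Hochberg over all tested genes), 12 of 81 genes (14.8%) were higher at 48 h, while 19.1% of all tested genes were called higher, so the share of calls was not above the background. Only 1 gene, Ndufa4l2, was lower, where the background was 13.5%. In 31 of 81 genes (38.3%) all 48 h libraries lay above all 0 h libraries, against 27.5% of all tested genes, and in 3 (3.7%) all lay below, against 23.9%.

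By complex, the values were highest in complex III, the cytochrome bc1 complex. All 9 of its genes had a positive log2 change (median 0.52), and 3 of 9 passed. In complex V the median was 0.34 with 4 of 15 called higher, and in complex II it was 0.34 with 2 of 4. Complex IV had a median of 0.23 with 1 of 16 called higher and 1 lower, and complex I, the largest, had a median of 0.19 with 2 of 35 called higher. Over all tested genes, 19.1% were called higher and 13.5% lower. Complex III was not the highest once a trend with gene length was removed, with medians of 0.211 for II, 0.221 for III and 0.223 for V. Whether the complexes differed from each other was not tested.

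**Figure D3:**
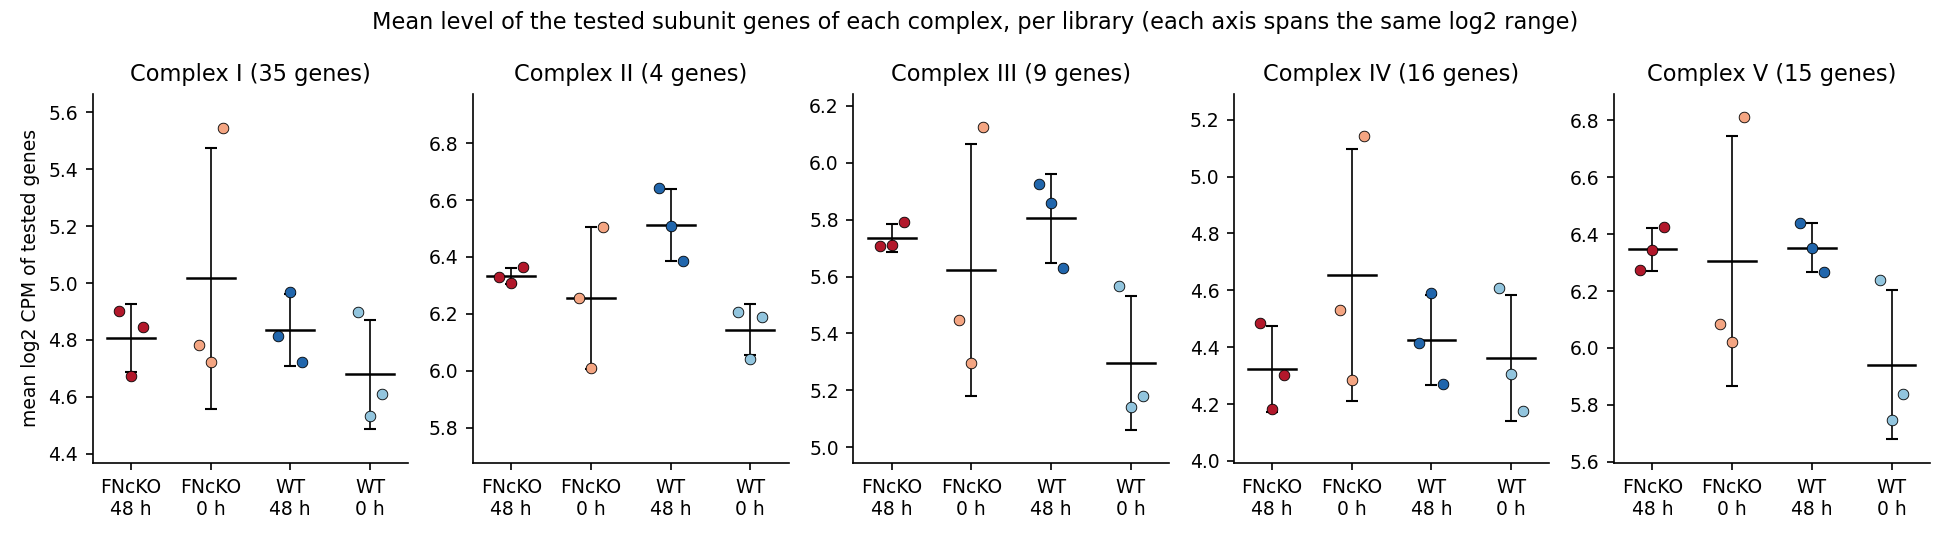
For each complex, points give the mean log2 CPM of its tested genes in each library, horizontal bars the group means and error bars the SD over 3 libraries; the 5 vertical axes span the same log2 range at different levels. FNcKO 0 h replicate 3 is the highest library in complexes I, III, IV and V, and in complexes II, III and V all WT 48 h libraries lie above all WT 0 h libraries.

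In complex II, the genes for the 2 membrane anchors rose and those for the 2 catalytic subunits did not pass. Sdhd (chr9:50596340-50603849), an anchor that helps to bind coenzyme Q, had 101, 80.6 and 87.3 CPM in WT 48 h libraries and 56.1, 47.4 and 52 CPM in WT 0 h libraries. The groups did not overlap, and the log2 change was 0.79 ± 0.16 (SE, taken from the size of the change and its F statistic; 1.73-fold, edgeR adjusted p = 0.00287). Sdhd was the only gene among the 12 that stayed past the threshold in all 23 alternative analyses, with log2 changes of 0.59 to 1.01. Sdhc, the other anchor, had 85.7, 83.1 and 59.7 CPM in WT 48 h libraries and 49.5, 45.9 and 51.6 CPM in WT 0 h libraries, a log2 change of 0.64 ± 0.18 (edgeR adjusted p = 0.0154). Sdha, which oxidises succinate, had 250, 198 and 216 CPM at 48 h and 223, 228 and 197 CPM at 0 h, with overlapping groups and a log2 change of 0.03 ± 0.14. The iron-sulfur subunit Sdhb was likewise at 0.03 ± 0.24.

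In complex III, Cyc1 (chr15:76343523-76345934), the gene for cytochrome c1, had 87.4, 77.3 and 65.1 CPM in WT 48 h libraries and 52.5, 42.2 and 46 CPM in WT 0 h libraries. All 48 h libraries were above all 0 h libraries, with a log2 change of 0.71 ± 0.23 (edgeR adjusted p = 0.0304). Uqcrq, a small subunit near the cytochrome b core, had 29.7, 36.3 and 32.4 CPM against 23, 16.3 and 18.2 CPM and changed by 0.77 ± 0.25 (edgeR adjusted p = 0.0295). Uqcrc1, a core subunit facing the matrix, had 124, 112 and 96.6 CPM against 85.2, 66.5 and 72.5 CPM and changed by 0.57 ± 0.16 (edgeR adjusted p = 0.0162). These 3 genes thus did not overlap between the times, and neither did Uqcrfs1, the Rieske iron-sulfur protein gene, and Uqcrc2. This made 5 of 9 genes (55.6%) with all 48 h libraries above all 0 h libraries, against 27.5% of all tested genes. The 6 genes that were not called, among them Uqcrfs1 and the abundant Uqcrb and Uqcrh, had log2 changes of 0.34 to 0.55.

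In ATP synthase, genes of the c ring, the rotor that protons turn, had the largest values. Atp5g3 (chr2:73908450-73911294) had 117, 82.5 and 82.5 CPM in WT 48 h libraries and 61.2, 43.9 and 49.5 CPM in WT 0 h libraries. Atp5g1 had 59.2, 67.8 and 55.1 CPM at 48 h and 44.1, 30.2 and 28.4 CPM at 0 h. Both were separated between the times (11.6% of the windows of Atp5g1 occur elsewhere, and none of Atp5g3), with log2 changes of 0.87 ± 0.25 for Atp5g3 (edgeR adjusted p = 0.017) and 0.82 ± 0.23 for Atp5g1 (edgeR adjusted p = 0.0149). Atp5g2 had 90.4, 81.3 and 89.8 CPM at 48 h and 58.6, 49.8 and 56.3 CPM at 0 h, also without overlap, but at 0.67 ± 0.24 it did not pass (edgeR adjusted p = 0.0506); DESeq2 called it higher. Atp5d, the delta subunit of the central stalk, and Atp5f1, the b subunit of the outer stalk, were called higher with log2 changes of 0.55 and 0.49 and edgeR adjusted p of 0.0459 and 0.0471, but kept the call in only 8 and 9 of the 23 alternatives. Of the 50-base windows of Atp5f1, 38.7% occur elsewhere. The catalytic genes Atp5a1 and Atp5b, at 0.33 ± 0.17 and 0.34 ± 0.20, did not pass.

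In complex IV, Cox6b1, a subunit on the cytochrome c side, was the gene called higher. It had 53.6, 51.5 and 47.6 CPM in WT 48 h libraries and 40.5, 23.3 and 29 CPM in WT 0 h libraries, a log2 change of 0.72 ± 0.25 (edgeR adjusted p = 0.0421) that was kept in 16 of the 23 alternatives. Ndufa4l2 (chr10:127514939-127517156), a paralog of Ndufa4 known as a target of hypoxia-inducible factor, went the other way. It had 0.952, 2.04 and 2.39 CPM in WT 48 h libraries and 9.43, 27.5 and 19.5 CPM in WT 0 h libraries, so the groups were far apart at low levels. The log2 change was -3.39 ± 0.79 (0.0956-fold, edgeR adjusted p = 0.00697), and it passed in all 23 alternatives. Its span shares 34 bp with Shmt2, and the sources used here do not say which strand setting the counting used; Shmt2 had 831 to 1519 counts per library.

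In complex I, 2 genes were called higher. Ndufv1, which binds NADH and FMN, had 61.8, 60.2 and 49.8 CPM in WT 48 h libraries and 44.8, 41.2 and 30.4 CPM in WT 0 h libraries (log2 change 0.56 ± 0.17, edgeR adjusted p = 0.0246). Ndufab1, the mitochondrial acyl carrier protein, had 25.2, 32 and 24.9 CPM at 48 h and 17.7, 16 and 15.5 CPM at 0 h (log2 change 0.74 ± 0.23, edgeR adjusted p = 0.0281). Both were separated between the times; 12.3% of the 50-base windows of Ndufab1 occur elsewhere. Ndufa1 and Ndufv3 had the lowest values of the complex, -0.89 and -0.41, with all 48 h libraries below all 0 h libraries, and neither passed (edgeR adjusted p = 0.124 and 0.154).

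**Figure D4:**
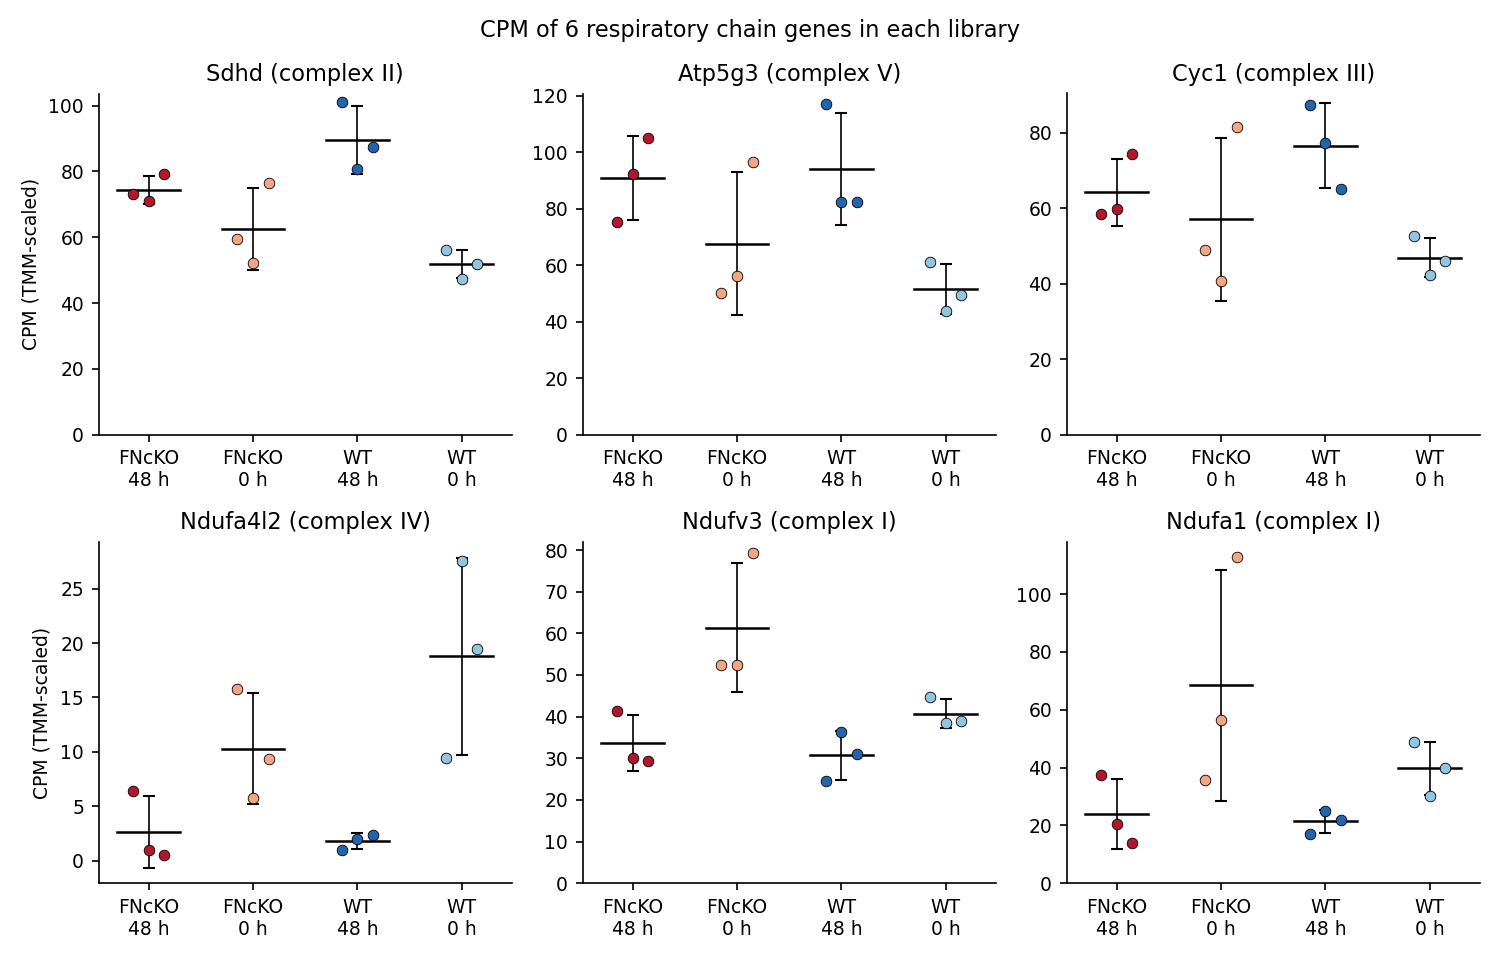
Points give the CPM of 6 genes in each library, bars the group means and error bars the SD over 3 libraries. Sdhd, Atp5g3 and Cyc1 are higher at 48 h than at 0 h in every WT library, Ndufa4l2 is lower at 48 h in every WT library, and Ndufv3 and Ndufa1 peak in FNcKO 0 h replicate 3.

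The number of genes called higher in WT depended on single libraries. It was 1 without WT 0 h replicate 2, 2 without WT 0 h replicate 3, 4 without WT 48 h replicate 1 and 5 without WT 48 h replicate 2, and it was 18 without FNcKO 0 h replicate 3, which enters the shared estimate of the spread. The 1 gene left in the first case was Sdhd. With total counts in place of TMM it was 32, where 26.7% of all tested genes were called higher, and the median over all tested genes then stood at 0.23. When a trend with gene length, fitted in each library over all tested genes, was removed (chosen after seeing the data), the median of the respiratory chain genes was 0.01, and 9 were called higher and 6 lower, where 20.4% and 13.7% of all tested genes were. Of the 12 genes called higher, Ndufv1, Sdhc, Atp5d and Atp5f1 lost the call in that fit, and Cox5a of complex IV gained it. Ndufa1, Ndufv3, Ndufa12, Ndufb11 and Ndufc1, all of complex I, were then called lower beside Ndufa4l2, and the medians by complex were -0.05 for I, 0.21 for II, 0.22 for III, -0.03 for IV and 0.22 for V.

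In FNcKO capsules the same comparison gave a lower picture. Only 23 of 81 tested genes had a log2 change above 0, with a median of -0.135 against 0.00 over all tested genes. None was called higher by edgeR, where 14.9% of all tested genes were, and 3 of 81 (3.7%) were called lower, where 9.9% were. At an unadjusted p under 0.05, 1 was higher and 11 were lower, where 20.5% and 16.7% of all tested genes were, and DESeq2 called 0 higher and 6 lower. All 48 h libraries lay above all 0 h libraries in 2 of 81 genes, against 20.1% of all tested genes, and below in 7, against 17.3%.

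These values rest in large part on FNcKO 0 h replicate 3. Without it, 52 of 81 genes had a positive log2 change, the median was 0.12, and 3 were called higher (Atp5g3, Cox5a and Uqcrq, with log2 changes of 0.74 for Atp5g3 and 0.67 for Uqcrq) and 1 lower (Ndufv3), where 12.8% and 9.91% of all tested genes were. The medians by complex were -0.15 for I, 0.09 for II, 0.11 for III, -0.17 for IV and -0.01 for V with all libraries. Without that library they were 0.07 for I, 0.13 for II, 0.34 for III, 0.08 for IV and 0.17 for V, so those of I, IV and V changed sign. With total counts as library size, 8 genes were called higher and 2 lower, where 23.4% and 4.99% of all tested genes were, with a median of 0.18 for the respiratory chain genes and 0.29 for all tested genes. The number called lower was 7 without FNcKO 0 h replicate 2, 5 when FNcKO 48 h replicate 1 was left out, and 1 when either of the other two libraries of that group was.

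Ndufv3 (chr17:31520115-31531325), an accessory subunit of the NADH-binding module, was the gene called lower in every alternative. It had 41.4, 30 and 29.4 CPM in FNcKO 48 h libraries and 52.4, 52.4 and 79.2 CPM in FNcKO 0 h libraries. The groups did not overlap, also without the highest library, and the log2 change was -0.87 ± 0.21 (edgeR adjusted p = 0.00964) and -0.68 without FNcKO 0 h replicate 3 (edgeR adjusted p = 0.0325). Ndufa1 (chrX:37187589-37191238), an X-linked accessory subunit needed to assemble complex I, had 37.4, 20.5 and 14 CPM in FNcKO 48 h libraries and 35.8, 56.4 and 113 CPM in FNcKO 0 h libraries. The groups overlapped, since the highest 48 h library was above the lowest 0 h library. The log2 change was -1.51 ± 0.42 (edgeR adjusted p = 0.0223), and it was -0.98 without FNcKO 0 h replicate 3 (edgeR adjusted p = 0.0814). Atp5s, known as coupling factor B, had 11.6, 4.81 and 3.81 CPM at 48 h and 10.8, 15.1 and 20.8 CPM at 0 h. Its groups overlapped as well, and its log2 change of -1.20 ± 0.39 (edgeR adjusted p = 0.0395) became -0.98 without that library (edgeR adjusted p = 0.122).

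Values in FNcKO follow for some of the genes that changed in WT. Sdhd had 73.2, 71 and 79.2 CPM in FNcKO 48 h libraries and 59.4, 52.1 and 76.4 CPM in FNcKO 0 h libraries, where replicate 3 at 0 h lay within the 48 h range, and the log2 change was 0.25 ± 0.16, and 0.38 without that library (edgeR adjusted p = 0.0931). Atp5g3 had 75.2, 92.4 and 105 CPM at 48 h and 50.2, 56 and 96.5 CPM at 0 h (log2 change 0.43 ± 0.25). Cyc1 had 58.4, 59.8 and 74.4 CPM at 48 h and 49, 40.7 and 81.6 CPM at 0 h (log2 change 0.17 ± 0.23, and 0.48 without replicate 3 at 0 h, edgeR adjusted p = 0.0818). In these 3 genes, replicate 3 was the only 0 h library that reached the 48 h values. Sdhc and Uqcrc1 were the 2 genes with all 48 h libraries above all 0 h libraries, replicate 3 included. Sdhc had 65.5, 64.1 and 81.4 CPM at 48 h and 54.1, 43.7 and 60.2 CPM at 0 h. Uqcrc1 had 100, 101 and 107 CPM at 48 h and 76.9, 70.1 and 96.7 CPM at 0 h. Neither was called higher by edgeR. Ndufa4l2 had 6.44, 0.983 and 0.529 CPM at 48 h and 15.8, 5.77 and 9.32 CPM at 0 h, a log2 change of -1.95 ± 0.75 that did not pass with edgeR (adjusted p = 0.0795) and passed with DESeq2; it was -2.06 without FNcKO 0 h replicate 3 (edgeR adjusted p = 0.117).

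**Figure D5:**
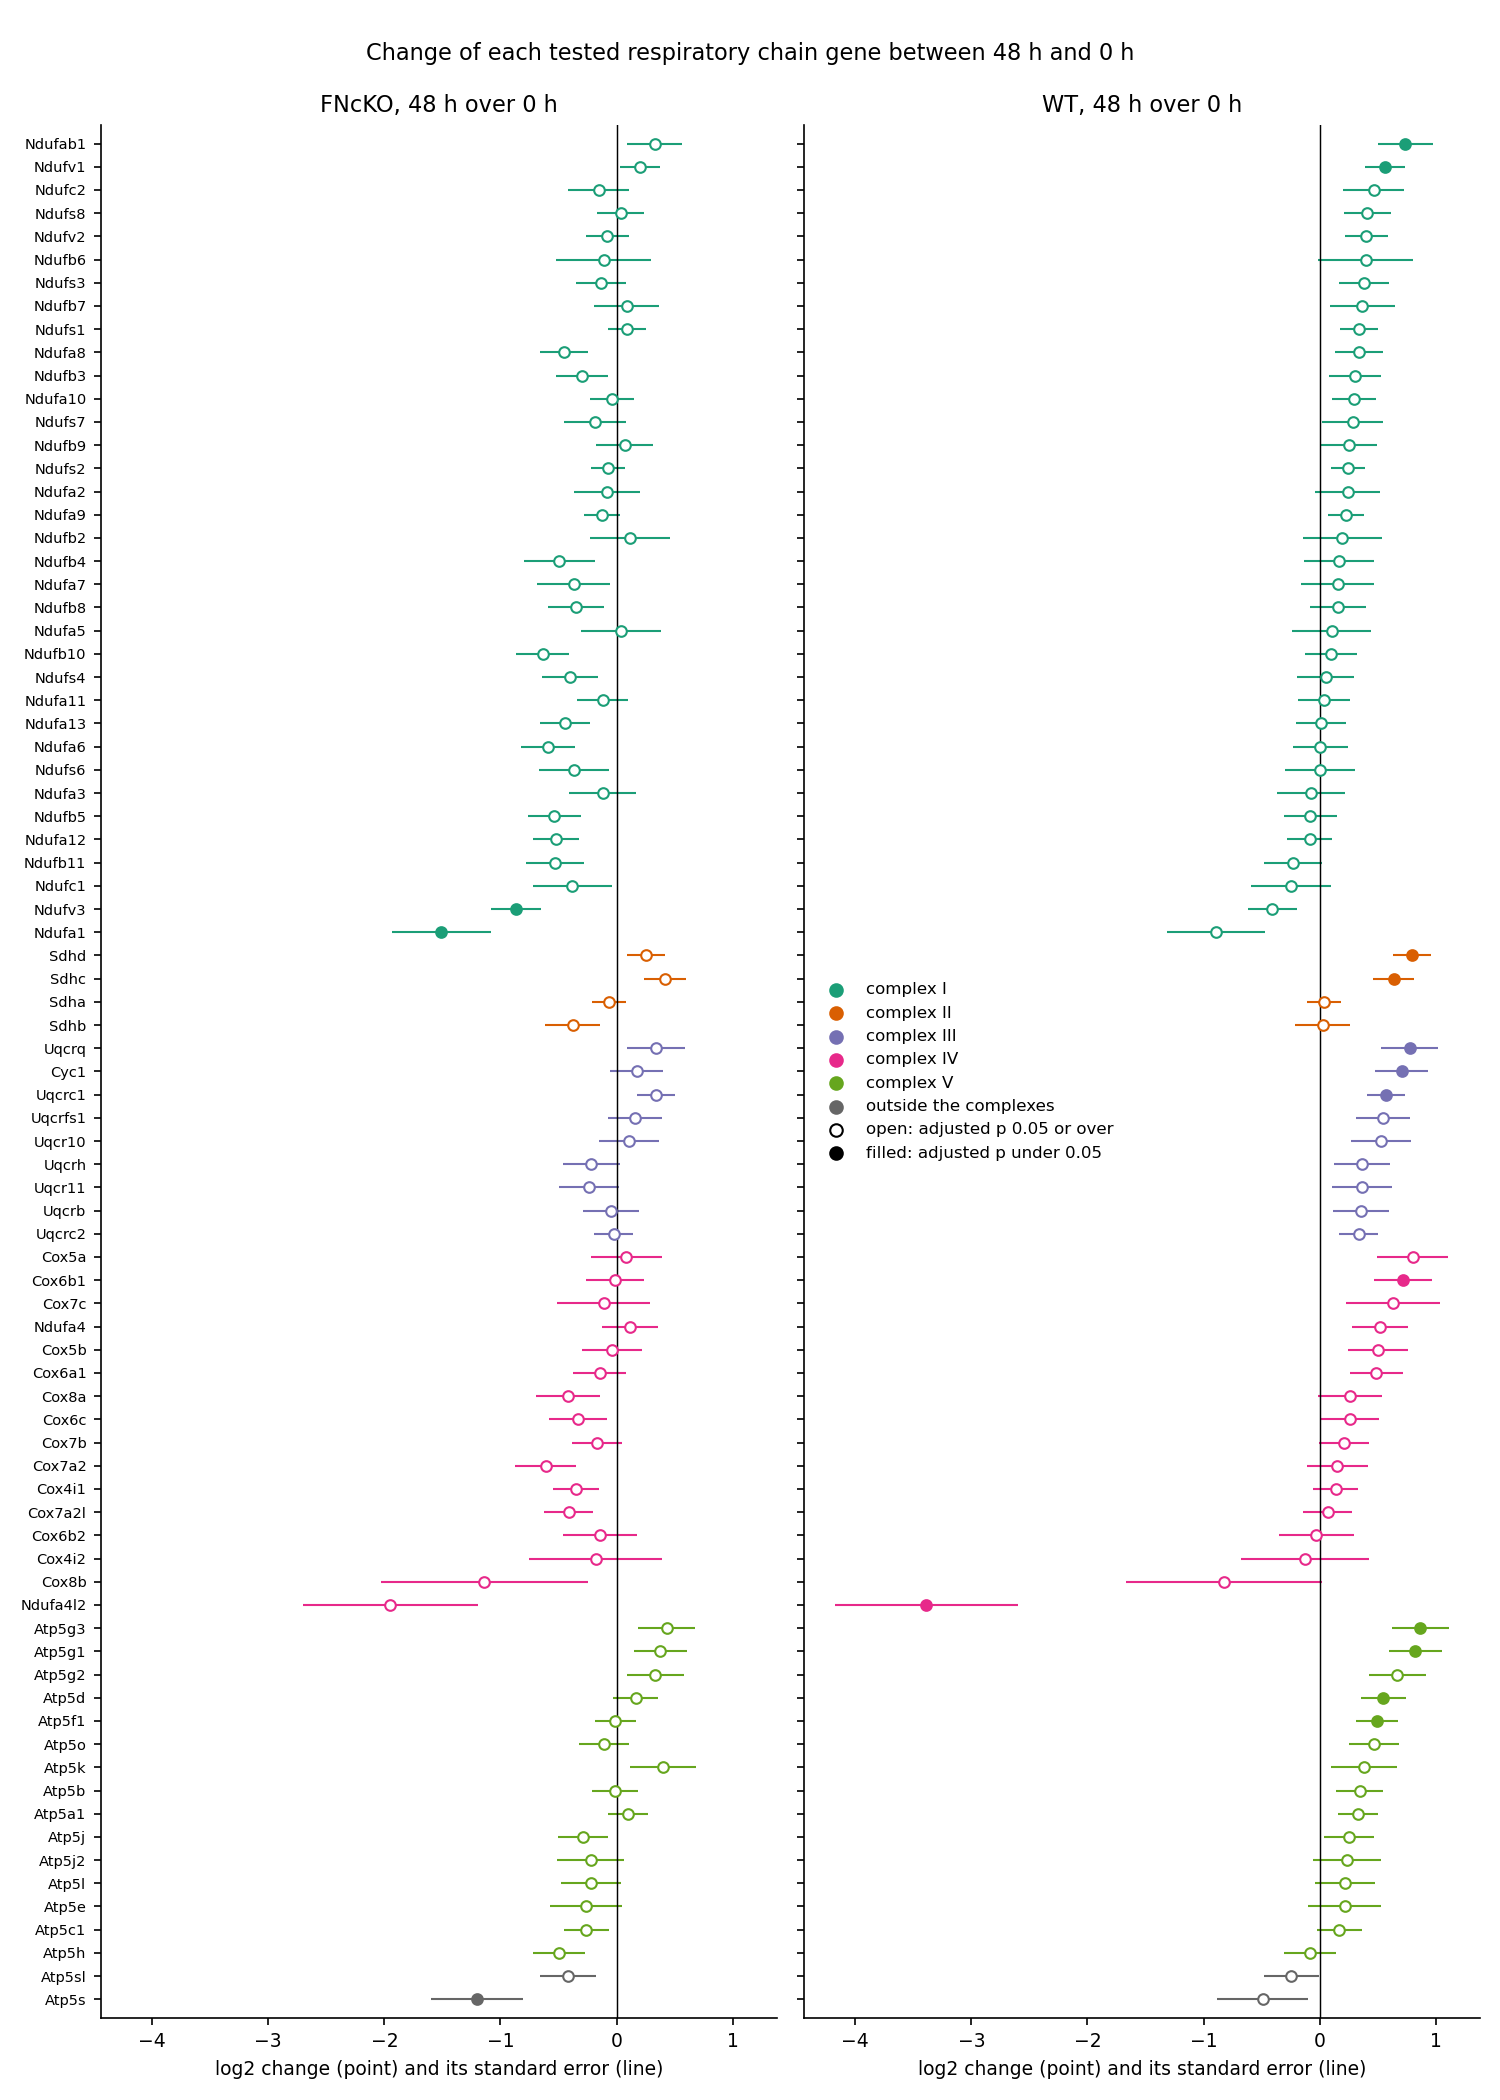
Points give the log2 change of each of the 81 tested genes between 48 h and 0 h, in FNcKO (left) and WT (right), lines its standard error, colours the complex, and filled points an edgeR adjusted p under 0.05. In WT 67 genes lie right of 0 and 12 of these are filled; in FNcKO 58 lie left of 0 and 3 of these are filled, with Ndufa4l2 the lowest value in both.

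Between FNcKO and WT, no respiratory chain gene passed at either time. At 48 h, 0 of 81 genes were called higher and 0 lower by edgeR, where 0.0412% and 0.199% of all tested genes were, and the median log2 difference was -0.07. It was 0.001 without WT 48 h replicate 2. By an unadjusted p under 0.05, 0 were higher and 1 was lower, where 2.07% and 3.4% of all tested genes were, and DESeq2 called none in either direction. All FNcKO libraries lay above all WT libraries in 4 of 81 genes and below in 3, against 4.48% and 5.25% of all tested genes. The 1 gene was Sdha, with 168, 178 and 168 CPM in FNcKO 48 h libraries and 250, 198 and 216 CPM in WT 48 h libraries. The groups did not overlap, with a log2 difference of -0.37 ± 0.14 (edgeR unadjusted p = 0.0245, adjusted p = 0.777). Sdha had 171, 195 and 174 CPM in FNcKO and 223, 228 and 197 CPM in WT at 0 h as well, a log2 difference of -0.26 ± 0.14 (edgeR adjusted p = 0.506). At both times all FNcKO libraries were thus below all WT libraries for Sdha, without passing the test. At 0 h the nearest libraries were 195 CPM in FNcKO and 197 CPM in WT. This difference of Sdha was picked out after its values were seen. Pigment cell markers differed between the genotypes at 48 h: 5 of them summed to 14.4 to 56 CPM in FNcKO and 165 to 428 CPM in WT, and their part in these values was not tested.

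At 0 h, 75 of 81 genes were above 0 in FNcKO relative to WT, with a median log2 difference of 0.40 and 0.01 over all tested genes. None was called by edgeR in either direction, where 0.0755% of all tested genes were called higher and 0.0687% lower. At an unadjusted p under 0.05, 18 were higher and 0 lower, where 5.98% and 5.03% of all tested genes were, and DESeq2 called none. All FNcKO libraries lay above all WT libraries in 6 of 81 genes and below in 1, against 8.68% and 7.95% of all tested genes. Without FNcKO 0 h replicate 3 the median was 0.09 and 0 genes reached an unadjusted p under 0.05. Single libraries also mattered the other way, since the median was 0.58 without FNcKO 0 h replicate 2. With the length trend removed it was 0.04.

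The difference of the 48 h responses, FNcKO minus WT, was tested in the same fit. The log2 difference was below 0 for 79 of 81 genes with a median of -0.435, whereas the median over all tested genes was -0.01. No gene passed with edgeR, where 0% of all tested genes did in either direction, and none passed with DESeq2. At an unadjusted p under 0.05, 0 were higher and 3 were lower, where 2.51% and 2.53% of all tested genes were. These were Ndufa8 and Ndufb10 of complex I, at unadjusted p of 0.0166 and 0.0379, and Sdhd, at -0.54 ± 0.23 and 0.0352, all with an edgeR adjusted p of 0.945; they were chosen after their values were seen. Without FNcKO 0 h replicate 3 the median was -0.16, and with the length trend removed it was -0.14. Each of these fits gave 1 gene lower at an unadjusted p under 0.05. Other fits enlarged the difference. Without FNcKO 0 h replicate 2 the median was -0.592 with 19 genes lower. Without both 0 h replicate 1 libraries it was -0.693 with 27 of 80 lower. Another fit used the combined table's column for WT 0 h replicate 1, which equals FNcKO 0 h replicate 1, and left that FNcKO library out. There the median was -0.589 with 25 lower. No respiratory chain gene passed the adjusted threshold in these fits. The changes of the respiratory chain genes in FNcKO and WT are therefore not shown to differ.

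Genes that work with the respiratory chain were read from 6 further lists. As above, 14.9% of all tested genes were called higher and 9.9% lower in FNcKO, and 19.1% higher and 13.5% lower in WT; without FNcKO 0 h replicate 3 the shares in FNcKO were 12.8% and 9.91%. No list was tested against the other genes or against another list. Of the assembly factors, which build the complexes, 1 of 50 tested was higher at 48 h in WT and 0 were lower, with a median of 0.03. It was Ndufaf4, with 15.8, 15.2 and 18.5 CPM at 48 h and 9.63, 11.2 and 8.31 CPM at 0 h (log2 change 0.76, edgeR adjusted p = 0.0188). In FNcKO, 0 of 50 were higher by edgeR and 3 (Surf1, Coa5 and Higd1a) were lower, and without FNcKO 0 h replicate 3 Coa5 was the 1 gene called lower. In both genotypes fewer assembly factors were called than the shares over all tested genes.

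Of 23 genes of the import channel and its chaperones, 9 were higher and 0 lower in WT (median 0.54), and 4 were higher and 1 lower in FNcKO, or 6 and 1 without FNcKO 0 h replicate 3. The share called higher was above that over all tested genes in WT and near it in FNcKO with all libraries. Tomm40, the outer membrane import pore, had 54.3, 50.9 and 57.5 CPM in WT 48 h libraries and 25, 22.1 and 21 CPM in WT 0 h libraries (log2 change 1.26, edgeR adjusted p = 0.000813). Phb2, a prohibitin of the inner membrane, had 75.1, 69.9 and 68.9 CPM against 32.1, 27.7 and 28.4 CPM (log2 change 1.28, edgeR adjusted p = 0.00176). For both genes all WT 48 h libraries lay above all WT 0 h libraries. Of 24 genes of the tricarboxylic acid cycle and pyruvate dehydrogenase, 9 were higher and 3 lower in WT, and 2 were higher and 4 lower in FNcKO, or 4 and 4 without FNcKO 0 h replicate 3. The 3 lower in WT are near the share over all tested genes, and the 2 higher in FNcKO are below it. Its extremes were kinases that switch pyruvate dehydrogenase off: Pdk4 was higher at low levels, with 5.52, 8.17 and 6.64 CPM at 48 h and 1, 1.12 and 1.57 CPM at 0 h in WT. Pdk1 was lower, with 53.8, 33.4 and 29.3 CPM at 48 h and 66.4, 97.7 and 103 CPM at 0 h in WT (log2 change -1.20, edgeR adjusted p = 0.00408), and with a log2 change of -1.83 in FNcKO (edgeR adjusted p = 0.000527), or -1.96 without FNcKO 0 h replicate 3 (edgeR adjusted p = 0.00192).

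Among 10 tested carriers of ADP, ATP and phosphate and regulators of ATP synthase, 3 were higher and 0 lower in WT, and 1 higher and 0 lower in FNcKO, or 3 and 0 without FNcKO 0 h replicate 3. In a list of 10, these are differences of 1 or 2 genes from the shares over all tested genes. Ucp2, an uncoupling-family carrier also known from macrophages, had 114, 143 and 134 CPM in FNcKO 48 h libraries and 53, 52.7 and 77.3 CPM in FNcKO 0 h libraries. In WT it had 351, 377 and 226 CPM at 48 h and 67.2, 61.6 and 52.2 CPM at 0 h. It was the gene of these lists that differed between genotypes, with a log2 difference of -1.29 at 48 h (0.41-fold, edgeR adjusted p = 0.0296), and -1.30 without FNcKO 0 h replicate 3 (edgeR adjusted p = 0.0202). The macrophage marker sums at 48 h given above, 144 to 302 CPM in FNcKO and 197 to 491 CPM in WT, overlap, and their part in this result was not tested. Slc25a5, the ADP/ATP carrier of proliferating cells, had 258, 172 and 202 CPM at 48 h and 133, 112 and 105 CPM at 0 h in WT (log2 change 0.85, edgeR adjusted p = 0.00756).

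Of 20 genes for mobile electron carriers and coenzyme Q synthesis, 4 were higher and 1 lower in WT, and 3 higher and 1 lower in FNcKO, or 2 and 1 without FNcKO 0 h replicate 3. The shares called higher are near those over all tested genes. The 2 kinase-like genes of coenzyme Q synthesis moved apart. Coq8b (Adck4 in the files) had 76.4, 60.4 and 37.8 CPM in WT 48 h libraries and 9.63, 18.9 and 14.3 CPM in WT 0 h libraries (log2 change 2.03, edgeR adjusted p = 0.000345), while Coq8a (Adck3) had 4, 4.57 and 4.46 CPM against 13.4, 12.1 and 9.4 CPM (log2 change -1.42, edgeR adjusted p = 0.00448). In FNcKO they changed by 1.69 and -1.25 (edgeR adjusted p = 0.00161 and 0.0117), and by 1.73 and -1.29 without FNcKO 0 h replicate 3 (edgeR adjusted p = 0.00741 and 0.0233).

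Of 19 regulators of mitochondrial biogenesis and mitochondrial DNA, 4 were higher and 1 lower in WT, and 3 higher and 0 lower in FNcKO, or 3 and 1 without FNcKO 0 h replicate 3. The shares called higher are near those over all tested genes. Myc, a growth regulator that also acts on mitochondrial genes, had 16, 43 and 57.5 CPM in FNcKO 48 h libraries and 11.7, 6.93 and 6.02 CPM in FNcKO 0 h libraries. In WT it had 34.4, 26.2 and 29.1 CPM at 48 h and 3.81, 7.55 and 4.46 CPM at 0 h, and both changes passed (log2 2.23 in FNcKO and 2.50 in WT, edgeR adjusted p = 0.0027 and 0.00116); in FNcKO it was 2.01 without replicate 3 at 0 h (edgeR adjusted p = 0.0166). Mterf1a, a mitochondrial transcription termination factor, rose in WT (log2 change 2.29, edgeR adjusted p = 0.0239) at very low levels, with 0.666, 1.36 and 1.25 CPM at 48 h and 0.201, 0.306 and 0.12 CPM at 0 h. Nrf1 and Gabpa, genes for the factors whose strings were searched above, had 22.9 ± 2.32 and 73.6 ± 6.25 CPM in WT at 48 h and 19.2 ± 1.91 and 71 ± 1.4 CPM in WT at 0 h (SD, n = 3), and neither was called in any comparison.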

How the data were processed

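Total RNA of 12 lens capsule libraries was sequenced from stranded TruSeq libraries. Per the submitters' processing notes, the tools were FastQC, Trim Galore 0.4.4, TopHat2 2.1.0, bedtools 2.17, SAMtools 1.4, HTSeq 0.6.1p1 and edgeR 3.16.5, with the build mm10; no source used here gives their settings. The deposited files hold whole read counts per gene, which were analysed. They also hold RPKM values as deposited by the authors, which were not tested. The deposited gene length was used for levels per kb and for length classes. A combined table holds 9 count columns, of which 8 equal the file of their library; its column for WT 0 h replicate 1 equals the FNcKO 0 h replicate 1 file in all 24147 genes, so the files of the single libraries were used. In all, 163 entries repeat a symbol.

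Genes were kept with filterByExpr (minimum count 10), scaled by TMM and fitted in 1 model of 4 groups with edgeR's quasi-likelihood test (R 4.3.3, edgeR 4.0.16, limma 3.58.1), p-values adjusted by Benjamini-Hochberg across every tested gene, and a threshold of 0.05. The fit gave 5 contrasts: 48 h against 0 h in each genotype, FNcKO against WT at each time, and the difference of the 48 h responses. Standard errors are the absolute log2 change divided by the square root of F. The procedure was tested on simulated data. Motifs were searched and figures drawn in Python 3.11.15. Named were, per contrast, the called genes with the largest changes (up to 8 each way), the 2 highest per kb in each complex, isoform sets, untested genes, and in each further list the 2 called genes with the largest change in WT; the other called genes, Sdhb, subunits given beside them, Nrf1 and Gabpa were added after their values were seen. The genes and lists were chosen with earlier results of these data known. Alternatives were DESeq2 1.42.0, other scalings and filters, crystallin and fiber genes left out, a replicate block, 6 libraries per fit, the combined table's column, both 0 h replicate 1 libraries left out, each library left out and, chosen after seeing the data, removal of a length trend. The fit with the combined table's column left FNcKO 0 h replicate 1 out.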

Additional observations from a re-analysis of the deposited data

How the results depend on the processing

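For WT at 48 h against 0 h, total counts as library size gave 32 genes higher and a median log2 change of 0.479, a fit on only the 6 libraries of the comparison gave 2 lower, and removal of the length trend (chosen after seeing the data) gave 6 lower and a median of 0.009. For FNcKO at 48 h against 0 h, total counts gave 8 higher and a median of 0.178, above 0 where TMM gave -0.135. Removal of the length trend gave 3 higher and 8 lower, and DESeq2 gave 6 lower. The combined table's column, with FNcKO 0 h replicate 1 left out, gave 5 lower. The cause of these differences was not tested. Leaving out 1 library at a time gave 1 to 18 genes higher in WT with medians of 0.193 to 0.425, and in FNcKO 0 to 3 higher and 1 to 7 lower with medians of -0.293 to 0.124. Medians then ran from -0.132 to 0.001 for FNcKO against WT at 48 h, from 0.089 to 0.576 at 0 h, and from -0.592 to -0.161 for the difference of the responses. Replicate numbers were not treated as pairs, and the labels do not say whether they are. Same-number correlations of deviations ran from -0.474 to 0.291, and 3 of 12 were over 0.1. They cannot exclude a pairing, since differences between single libraries enter them. With the replicate number as a block, WT had 11 higher and 1 lower and FNcKO 0 higher and 1 lower, and the other comparisons had none. Of the values of the 36 tested genes named by the rule or called in a comparison, 3816 kept their direction and side of the threshold, 146 changed sign without being called either way, 79 lost a call and 45 gained one. The 3816 include values not called in either fit, so they do not measure how well calls held. Of the 12 genes called higher in WT, 1 kept the call in all 23 alternatives. The fit on 6 libraries was not run for the difference of the responses. Depth limits the genes with few counts, Ndufa4l2, Cox6a2 and Cox7a1 among them.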
